A study of Homo sapiens with 33 samples.

Results

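The IRX genes are the 6 human members of the Iroquois family, IRX1 to IRX6, and were taken by name from both tables of the study, as 6 of the 35805 genes of the RNA table and 19 of the 153958 promoter windows of the ChIP table. The cells were H9, a human embryonic stem cell (ESC) line, grown on mouse feeder cells and flow-sorted for the surface marker SSEA4. Transcripts were measured in 4 genotypes, each with 3 libraries, and promoter chromatin in the same 4. EZH2+/+ ESCs (WT in the labels) were the parental line. EZH2–/+ ESCs (Het) carried a CRISPR/Cas9 mutation on 1 allele. EZH2–/– ESCs (Null) were mutated on both alleles and were made by targeting an EZH2–/+ line a second time while a doxycycline (DOX)-inducible EZH2 transgene was on. EZH2–/– +EZH2 ESCs (Null + EZH2) were, in the study's terms, EZH2–/– ESCs in which DOX switched the transgene on. EZH2–/– lines could be kept without DOX, and some had the transgene removed. All mutant lines were grown from picked clones, and clone differences cannot be told apart from the EZH2 genotype in comparisons between lines. Between EZH2–/– and EZH2–/– +EZH2 ESCs, DOX itself cannot be told apart from the EZH2 it induced.

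IRX proteins are homeodomain transcription factors of the TALE class, which pattern the nervous system, heart, limbs and other organs of the embryo. The genes sit in a pair of 3-gene clusters that arose by duplication, with IRX4, IRX2 and IRX1 on chromosome 5 and IRX3, IRX5 and IRX6 on chromosome 16. Polycomb repressive complex 2 (PRC2), of which EZH2 is the enzyme, places H3K27me3 on the promoters of such developmental regulators in ESCs, where the mark goes with low transcription.

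In GRCh38, the assembly used by the tables, the chromosome 5 cluster ran from IRX4 (chr5:1877413-1887236, minus strand) through IRX2 (chr5:2745845-2751662, minus strand) to IRX1 (chr5:3596054-3601403, plus strand). The chromosome 16 cluster held IRX3 (chr16:54283304-54286763, minus strand), IRX5 (chr16:54930862-54934485, plus strand) and IRX6 (chr16:55323760-55330760, plus strand). RefSeq promoters (GRCh38.p14, 250 bases before to 50 bases after a start) matched 3 of the 6 genes, with 3 entries for IRX4, 1 for IRX2 and 1 for IRX1. The entries used here did not hold IRX3, IRX5 or IRX6. The chromosome 5 promoters are shown because the results turn on how differently these 3 neighbours carried H3K27me3 although all were rich in CpG, the dinucleotide of PRC2-bound promoters. They are the IRX4 entry inside the window used for H3K27me3 (chr5:1882876-1883175, minus strand), the IRX2 entry (chr5:2751628-2751927, minus strand) and the IRX1 entry (chr5:3595582-3595881, plus strand), read 5′ to 3′ with each CG in capitals.
IRX4: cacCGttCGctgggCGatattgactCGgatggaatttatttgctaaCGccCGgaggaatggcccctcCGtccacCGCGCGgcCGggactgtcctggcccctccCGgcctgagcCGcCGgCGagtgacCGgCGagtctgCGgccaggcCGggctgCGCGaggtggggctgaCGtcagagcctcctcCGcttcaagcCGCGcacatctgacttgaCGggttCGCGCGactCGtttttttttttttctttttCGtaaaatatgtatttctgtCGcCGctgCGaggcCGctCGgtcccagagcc
IRX2: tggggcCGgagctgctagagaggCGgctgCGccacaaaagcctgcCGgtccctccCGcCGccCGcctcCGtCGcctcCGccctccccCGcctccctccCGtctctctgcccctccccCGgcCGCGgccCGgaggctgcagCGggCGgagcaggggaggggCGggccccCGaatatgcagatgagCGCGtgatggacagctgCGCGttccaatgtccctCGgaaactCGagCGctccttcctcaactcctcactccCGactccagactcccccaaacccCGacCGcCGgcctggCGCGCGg
IRX1: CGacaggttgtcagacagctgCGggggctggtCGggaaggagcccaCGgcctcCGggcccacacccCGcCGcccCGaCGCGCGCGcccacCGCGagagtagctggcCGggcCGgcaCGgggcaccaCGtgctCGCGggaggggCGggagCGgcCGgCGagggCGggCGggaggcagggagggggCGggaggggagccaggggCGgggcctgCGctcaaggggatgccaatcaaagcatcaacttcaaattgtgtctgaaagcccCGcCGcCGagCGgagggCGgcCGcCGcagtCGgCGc
The IRX4, IRX2 and IRX1 sequences held 36, 34 and 38 CG dinucleotides, against a median of 14 over all 35116 promoters of that table. Of all promoters, 87.3%, 84.4% and 90.1% held fewer. G and C made up 63% of the IRX4 sequence, 73.3% of the IRX2 sequence and 76% of the IRX1 sequence (median of all promoters 58.7%). The other IRX4 entries, at the start of the gene, held more CG dinucleotides, 47 and 44, with 79.7% and 75% G and C. The letters TATAAA, searched on both strands, were in none of the 5 IRX entries and in 11.5% of all promoters.

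EZH2 transcripts checked the labels. They ranged from 59.5 to 68.6 RPM, the read count scaled to a common library size, in EZH2+/+ libraries and from 45.7 to 55.4 RPM in EZH2–/+ libraries. EZH2–/– libraries held 8.65 to 11.5 RPM, and libraries with the transgene 256 to 385 RPM. The transgenic cells thus held more EZH2 RNA than the parental line. Libraries held 16587860 to 36589089 reads on genes. All 8 pluripotency markers listed were detected in every library, and their summed level ran from 2357 to 2978 RPM in parental, 3191 to 3979 RPM in EZH2–/+, 3730 to 4245 RPM in EZH2–/– and 3495 to 4140 RPM in transgenic libraries. Of the 8, 5 passed the limma test as higher in EZH2–/– than EZH2+/+ ESCs (POU5F1, NANOG, DPPA4, TDGF1 and L1TD1). SOX2 was lower (-1.05, limma adjusted p = 0.0026). Of all genes tested, 12.6% were higher and 18.8% lower. In the third EZH2–/+ library IRX1, IRX2, IRX3 and IRX5 were high and IRX6 was low relative to the other two, so comparisons with EZH2–/+ ESCs are given with and without it.

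In EZH2+/+ ESCs the 6 genes spanned a wide range of levels per length. RPM divided by kilobases of exon (RPKM) came to 30.3 ± 6.83 (SD, n = 3) for IRX2 and 17.9 ± 5.71 for IRX1, its chromosome 5 neighbour. IRX3 stood at 2.32 ± 0.713 RPKM and IRX5 at 1.37 ± 0.660 RPKM. Both act in heart and limb development, and their libraries overlapped. IRX4, known from the ventricular heart muscle, stood at 0.124 ± 0.0641 RPKM and IRX6, known from retinal interneurons, at 0.125 ± 0.0254 RPKM, which did not differ beyond their spread. Each cluster thus held 2 genes at higher levels and, at one end, a gene with 10 to 27 reads a library.

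IRX1 was measured at 49.1, 25.4 and 37.0 RPM in the 3 EZH2+/+ libraries and at 6.39, 3.17 and 5.82 RPM in the 3 EZH2–/– libraries. Every EZH2–/– library lay below every EZH2+/+ library. The log2 fold change was -2.84 (SE 0.68, limma adjusted p = 0.0077), a level 7.18-fold lower. IRX1 overlaps the antisense gene CTD-2012M11.3, and reads were counted without strand, so the 2 cannot be told apart over the overlap. Fewer expressing cells and less RNA per cell cannot be told apart in such bulk samples. IRX2 was measured at 104, 79.2 and 126 RPM in EZH2+/+ and at 45.3, 35.8 and 43.8 RPM in EZH2–/– libraries. Here too the groups did not overlap, and the log2 fold change was -1.29 (SE 0.32, limma adjusted p = 0.0090). These 2 falls passed the test under all 20 alternative settings, with log2 fold changes from -3.09 to -2.54 for IRX1 and from -1.46 to -1.13 for IRX2. Of 20608 genes tested, 18.8% were lower and 12.6% higher in this comparison by the same limma call.

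IRX3 and IRX5, neighbours on chromosome 16, showed the same direction at lower levels. IRX3 was at 9.17, 5.17 and 6.10 RPM in EZH2+/+ and at 1.79, 3.34 and 3.56 RPM in EZH2–/– libraries. IRX5 was at 5.73, 1.98 and 4.00 RPM in EZH2+/+ and at 0.651, 1.50 and 0.980 RPM in EZH2–/– libraries. For both genes the groups did not overlap. The log2 fold changes were -1.22 for IRX3 (SE 0.48, limma adjusted p = 0.072) and -1.75 for IRX5 (SE 0.63, limma adjusted p = 0.0502), which missed the threshold of 0.05. With the replicate number as a block in the limma fit the adjusted p was 0.028 for IRX3 and 0.019 for IRX5. Without the third EZH2–/+ library, which shares the estimate of the spread, both genes also passed, as 37.4% of all genes did. That library was set apart for its levels of these genes, so these 2 calls are not independent of that choice.

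The remaining pair was higher in EZH2–/– libraries. IRX4 was measured at 0.266, 0.254 and 0.590 RPM in EZH2+/+ and at 1.13, 2.55 and 1.69 RPM in EZH2–/– libraries, from 10 to 27 reads and from 57 to 136 reads a library. The log2 fold change was 2.01 (SE 0.40, limma adjusted p = 0.0027), a 4.02-fold rise, and it passed the test under each of the 19 alternatives that kept the gene. IRX6 was at 0.289, 0.380 and 0.437 RPM in EZH2+/+ and at 0.668, 0.901 and 1.28 RPM in EZH2–/– libraries, from 13 to 20 and from 38 to 48 reads. Its libraries did not overlap, but the log2 fold change of 1.13 (SE 0.41) had a limma adjusted p of 0.051. It was 0.046 with the replicate block. All 6 IRX genes had thus no overlap between EZH2–/– and EZH2+/+ libraries, as did 49.8% of all genes tested. In number, 3 of the 6 passed the limma test (IRX1 and IRX2 lower, IRX4 higher), against 31.4% of all genes called in either direction. With the replicate block all 6 passed, against 45.3% of all genes. Even in EZH2–/– ESCs IRX4 reached only 0.602 ± 0.242 RPKM and IRX6 0.321 ± 0.104 RPKM, below the 2.46 ± 0.825 RPKM of IRX1 and the 12.2 ± 1.50 RPKM of IRX2 in the same cells.

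With the EZH2 transgene on, the 6 genes differed in their levels relative to EZH2–/– ESCs. IRX4 was at 0.360, 0.616 and 0.240 RPM in EZH2–/– +EZH2 libraries, all below the EZH2–/– libraries. Without against with the transgene, the log2 fold change was 1.90 (SE 0.40, limma adjusted p = 0.023). It was the only IRX gene to pass in this comparison, in which 2.63% of all genes were higher. The call rested on few reads, 6 to 23 a library with the transgene, and was lost without EZH2–/– replicate 2 (adjusted p = 0.14) or 3 (0.077), without EZH2–/– +EZH2 replicate 1 (0.068) or 3 (0.092), and in limma voom on the recovered reads (0.060). IRX6 was at 0.309, 0.348 and 0.520 RPM with the transgene, again without overlap, and its log2 fold change was 1.07 (SE 0.41, limma adjusted p = 0.19). Relative to EZH2+/+ ESCs, the transgenic cells differed by a log2 fold change of 0.11 for IRX4 (95% interval -0.76 to 0.97) and of 0.06 for IRX6 (-0.83 to 0.94), and differences inside these intervals were not detectable.

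IRX1, IRX3 and IRX5 were below EZH2+/+ levels also when EZH2 was supplied. IRX1 was at 6.74, 3.62 and 6.04 RPM in EZH2–/– +EZH2 libraries, overlapping the EZH2–/– libraries. The difference between EZH2–/– and EZH2–/– +EZH2 ESCs was -0.10 on the log2 scale for IRX1 (95% interval -1.57 to 1.37) and -0.24 for IRX2 (-0.93 to 0.44). IRX3 was at 1.08, 1.63 and 2.52 RPM with the transgene and IRX5 at 0.463, 0.482 and 1.20 RPM. Relative to EZH2+/+ ESCs, IRX1 was lower by -2.74 (SE 0.68, limma adjusted p = 0.023), IRX3 by -1.94 (SE 0.48, adjusted p = 0.024) and IRX5 by -2.29 (SE 0.63, adjusted p = 0.036), in a comparison where 6.9% of all genes were lower. IRX2 was at 62.6, 37.8 and 49.6 RPM, below all EZH2+/+ libraries, and its change of -1.05 (SE 0.32) had a limma adjusted p of 0.055, which was 0.0037 with the replicate block (22.4% of all genes called). The EZH2+/+ libraries served in both comparisons, so the falls in EZH2–/– and EZH2–/– +EZH2 ESCs are not independent of each other. Calls for IRX1, IRX3 or IRX5 were lost without EZH2+/+ replicate 1, 2 or 3 or EZH2–/– +EZH2 replicate 1 or 2, with adjusted p from 0.051 to 0.14. The IRX5 call was also lost with no filter on low values, with median-ratio scaling and by voom (adjusted p = 0.057 to 0.058).

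EZH2–/+ ESCs held the same 4 genes at levels that varied between libraries. IRX1 was at 5.44 and 1.66 RPM in replicates 1 and 2 and at 23.1 RPM in replicate 3, and IRX5 at 0.955, 0.432 and 3.63 RPM. IRX3 was at 1.74, 1.12 and 5.09 RPM and IRX2 at 63.8, 31.6 and 88.9 RPM. In each case the third library was the highest. No IRX gene passed the limma test between EZH2–/+ and EZH2+/+ ESCs, in which 1.15% of all genes were called. The log2 fold changes were -2.56 for IRX1 (SE 0.68, limma adjusted p = 0.12), -1.57 for IRX3 (SE 0.48, adjusted p = 0.20), -1.52 for IRX5 (SE 0.63, adjusted p = 0.40) and -0.84 for IRX2 (SE 0.32, adjusted p = 0.34). At an unadjusted limma p under 0.05, these 4 passed, as did 2181 of all genes. IRX1 and IRX2 passed with the replicate block (limma adjusted p = 0.018 and 0.042), which called 2.88% of all genes. Without the third EZH2–/+ library IRX1 (-3.53, adjusted p = 0.0034), IRX3 (-2.16, 0.016) and IRX5 (-2.29, 0.036) passed, and IRX2 did not (-1.17, 0.056). This setting called 2.92% of all genes, and it left out a library set apart for its levels of these genes. Without the second EZH2–/+ library the changes were smaller, at -1.67 for IRX1, -0.42 for IRX2, -1.12 for IRX3 and -0.89 for IRX5, and none passed.

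IRX4 and IRX6 were both higher in EZH2–/– than in EZH2–/+ ESCs. IRX4 was at 0.269, 0.497 and 0.445 RPM in EZH2–/+ libraries, and the log2 fold change was 1.87 (SE 0.40, limma adjusted p = 0.0066). IRX6 was at 0.416, 0.346 and 0.071 RPM, the last from 4 reads, and the log2 fold change was 1.58 (SE 0.41, limma adjusted p = 0.018). Of all genes tested, 10.3% were higher here. IRX1, IRX2, IRX3 and IRX5 changed by -0.28, -0.45, 0.34 and -0.23 and did not pass. Without the third EZH2–/+ library the log2 fold changes were 1.94 for IRX4 (limma adjusted p = 0.013) and 1.09 for IRX6 (adjusted p = 0.045). The IRX6 call was lost without EZH2–/– replicate 2 (adjusted p = 0.058) or 3 (0.070). Between EZH2–/– +EZH2 and EZH2–/+ ESCs 0 of the 6 IRX genes passed in limma, with or without the block, by voom, or without the third EZH2–/+ library, against 2.41% of all genes.

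Mean levels ordered the genotypes differently for the 6 genes. EZH2+/+ ESCs were highest for IRX1, IRX2, IRX3 and IRX5, and EZH2–/– ESCs for IRX4 and IRX6. The 3 mutant genotypes overlapped in their libraries for IRX1, IRX2, IRX3 and IRX5, and the 3 genotypes other than EZH2–/– overlapped for IRX4 and IRX6.

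**Figure D1:**
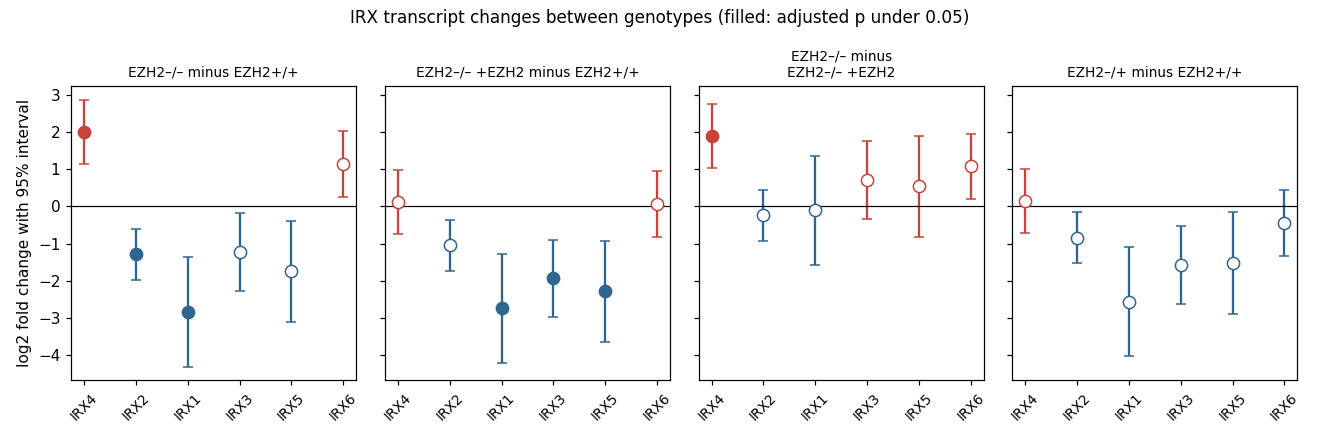
Log2 fold change of each IRX gene with its 95% interval from limma (12 libraries) in 4 comparisons, filled where the adjusted p was under 0.05. IRX4 rises to 2.01 in EZH2–/– relative to EZH2+/+ ESCs and is at 0.11 with the transgene, while IRX1 is at -2.84 and -2.74.

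The promoters of the 6 genes differed in H3K27me3 in EZH2+/+ ESCs. For each gene the 5 kb window with the most H3K27me3 in EZH2+/+ was used. Each histone or input value is the authors' value, which fitted an average of 2 libraries on the log2 scale, without an error between replicates. H3K27me3 was 41.2 RPM at IRX4, 28.5 RPM at IRX3, 20.3 RPM at IRX5, 12.7 RPM at IRX1, 11.5 RPM at IRX6 and 1.42 RPM at IRX2. The median over 35684 gene names was 1.96 RPM. IRX4 therefore lay above 99.3% of gene names and IRX2 above 32.1%. IRX2, the IRX gene with the highest RNA level per length, was the one without H3K27me3 above the median in RPM. Input chromatin there was also low, at 0.587 RPM against a median of 1.51 RPM, and 0.549% of gene names read lower. These levels were not divided by input.

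EZH2 itself, measured in EZH2+/+ ESCs by crosslinked ChIP in a single deep library, gave 5.54 RPM at IRX3, 5.44 RPM at IRX4, 4.08 RPM at IRX5, 2.15 RPM at IRX1, 1.30 RPM at IRX2 and 0.494 RPM at IRX6, against a median of 0.290 RPM over gene names. The sample was taken as EZH2 from its name, since its antibody label reads None. IRX2 thus lay above 94.1% of gene names in EZH2 although its H3K27me3 in RPM was below the median. IRX6 showed the opposite, with 11.5 RPM of H3K27me3 (above 91.1% of gene names) and EZH2 above 68.7% of them.

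H3K27me3 was lower at 5 of the 6 windows in EZH2–/– ESCs. There IRX4 was at 1.99 RPM, IRX3 at 2.39 RPM, IRX5 at 1.76 RPM, and IRX1 and IRX6 at 0.856 RPM each. On the log2(RPM + 0.1) scale the change from EZH2+/+ was -4.31 at IRX4 (95% counting interval -4.70 to -3.91), -3.74 at IRX1, -3.60 at IRX6, -3.52 at IRX3 and -3.45 at IRX5. At IRX2 it was -0.36 (-1.12 to 0.39), from 1.42 to 1.08 RPM. Counting intervals and reads cover counting error only. Over all gene names, 48% were lower by at least 1 on this scale, and the median change was -0.94 against -3.56 over the 6 IRX genes. A window chosen for its EZH2+/+ value tends to give lower values elsewhere, and over all 19 IRX windows the changes ran from -4.98 to -0.36. With all values centred on promoters low in H3K27me3, the IRX median was -2.89, the 5 genes ran from -3.64 at IRX4 to -2.78 at IRX5, and IRX2 turned to 0.31.

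**Figure D2:**
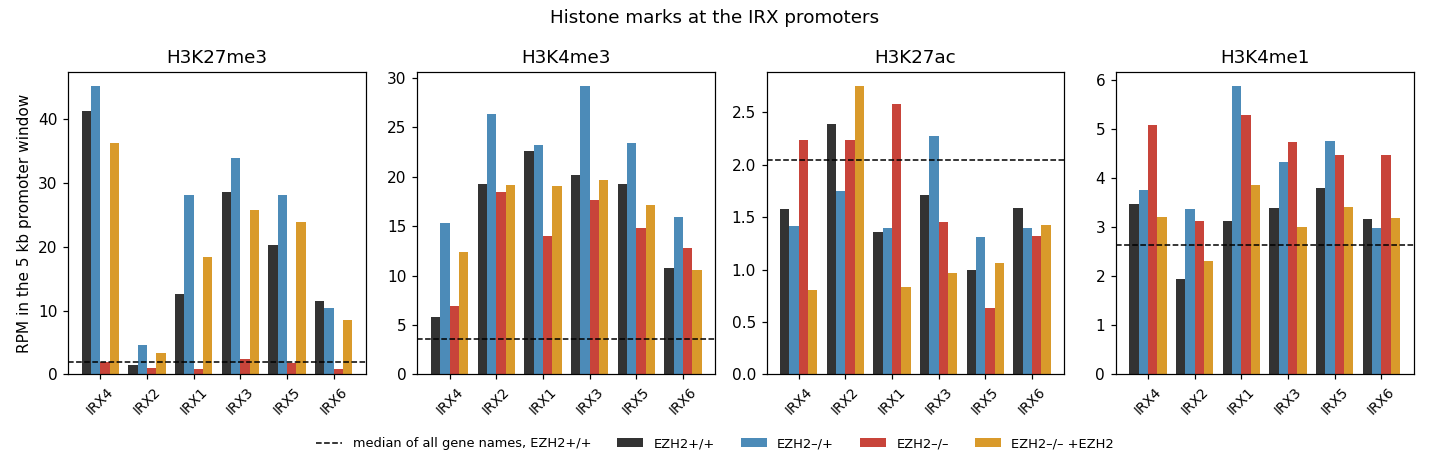
RPM of 4 histone marks in the 5 kb promoter window of each IRX gene, with 1 bar per genotype and a dashed line at the median of 35684 gene names in EZH2+/+ ESCs. H3K27me3 lies between 0.856 and 2.39 RPM in EZH2–/– ESCs at all 6 genes, and H3K4me3 stays above the line in all genotypes.

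With the transgene on, H3K27me3 was again present on the IRX promoters. In EZH2–/– +EZH2 ESCs IRX4 was at 36.3 RPM, IRX3 at 25.8 RPM, IRX5 at 23.8 RPM, IRX1 at 18.4 RPM, IRX6 at 8.48 RPM and IRX2 at 3.36 RPM. EZH2–/– was lower than EZH2–/– +EZH2 by at least 1 on the log2 scale at all 6 genes, from -4.27 at IRX1 to -1.55 at IRX2, compared with 37.3% of gene names. Relative to EZH2+/+ ESCs the log2 change was -0.18 at IRX4 (counting interval -0.32 to -0.05, and 0.07 when centred as above), -0.15 at IRX3, 0.23 at IRX5, 0.53 at IRX1 (0.31 to 0.75) and -0.44 at IRX6. At IRX2 it was 1.18 (0.56 to 1.81), the only IRX gene past 1, which 1.18% of gene names reached. It was 0.93 as a ratio to input and 0.85 with a pseudocount of 1 RPM, both short of 1.

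EZH2–/+ ESCs held more H3K27me3 than EZH2+/+ ESCs at IRX2 and IRX1, the neighbours on chromosome 5. IRX2 stood at 4.54 instead of 1.42 RPM, a log2 change of 1.61 (counting interval 0.99 to 2.23), and IRX1 at 28.2 instead of 12.7 RPM, a change of 1.15 (0.93 to 1.36). A change of 1 or more was reached by 0.653% of gene names. The other 4 IRX genes differed by -0.15 to 0.47. Input chromatin in the same windows was higher by 0.47 at IRX2 and by 0.13 at IRX1. As a ratio to input, the changes were 1.14 at IRX2 and 1.02 at IRX1 and from -0.31 to 0.17 at the other 4, with IRX3 and IRX4 turning negative, and the IRX median was -0.02 instead of 0.36.

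**Figure D3:**
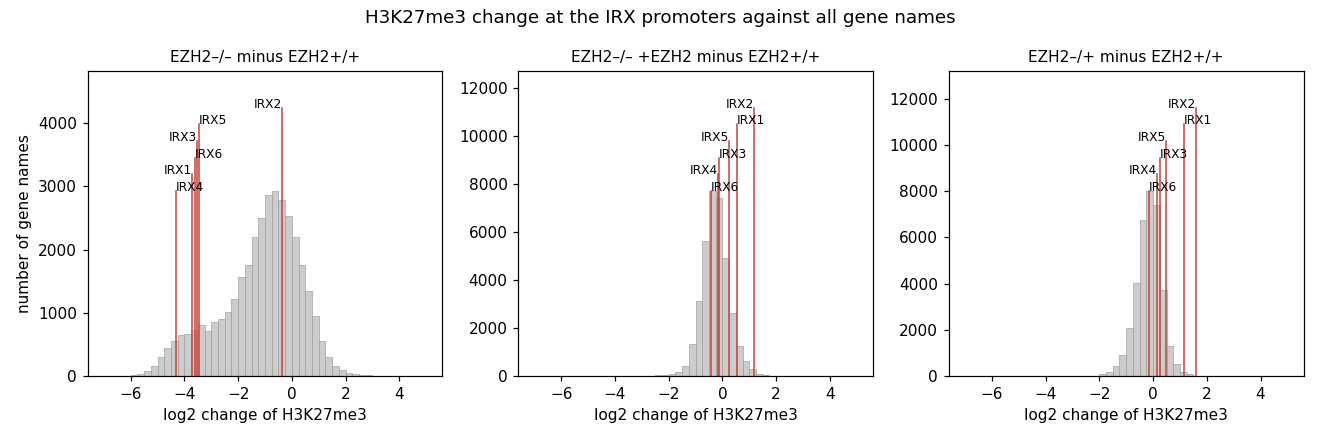
Distribution over 35684 gene names (grey bars, number of gene names) of the log2 change of H3K27me3 in 3 comparisons with EZH2+/+ ESCs, with red lines at the 6 IRX genes (line heights only separate the names). In EZH2–/– ESCs 5 genes lie between -4.31 and -3.45 and IRX2 lies at -0.36. IRX2 and IRX1 lie farthest right with the transgene and in EZH2–/+ ESCs.

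The marks of active promoters differed less. H3K4me3, which marks transcription starts, was high at IRX1 (22.5 RPM in EZH2+/+), IRX3 (20.2 RPM), IRX5 (19.3 RPM) and IRX2 (19.3 RPM), each above 98.5% or more of gene names, and lower at IRX6 (10.7 RPM) and IRX4 (5.79 RPM). The IRX4 window, chosen for its H3K27me3, was centred inside the gene, at chr5:1881093. Over the 8 IRX4 windows H3K4me3 ran from 4.47 to 12.9 RPM in EZH2+/+ ESCs. Genes with much H3K27me3 in RPM and genes with little were thus both marked by H3K4me3. Between EZH2–/– and EZH2+/+ the changes ran from -0.68 at IRX1 to 0.26 at IRX4, with a median of -0.13 (all gene names -0.17). In the IRX4 window used, EZH2–/+ ESCs held 15.3 RPM of H3K4me3, EZH2–/– ESCs 6.96 RPM, and ESCs with the transgene 12.3 RPM. Its log2 change relative to EZH2+/+ was 1.38 in EZH2–/+ ESCs, where 5.19% of gene names were higher by 1 or more, and 1.08 with the transgene, where 1.71% did. The EZH2+/+ H3K4me3 column was the shallowest of all, with about 3430000 reads a library, and over the 8 IRX4 windows the change ran from 0.37 to 2.16 in EZH2–/+ ESCs, from 0.20 to 1.85 with the transgene and from -0.32 to 1.27 in EZH2–/– ESCs. The mean over those windows was 1.02 in EZH2–/+ ESCs and 0.77 with the transgene.

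H3K27ac is a mark of active promoters and enhancers placed on the same residue as H3K27me3. In EZH2+/+ ESCs it lay from 0.991 RPM at IRX5 to 2.38 RPM at IRX2, against a median of 2.04 RPM over gene names. Only IRX2 lay above that median, and the others lay above 7.32% (IRX5) to 32.6% (IRX3) of gene names. Input chromatin was low in the IRX windows, with a median of 0.883 RPM against 1.51 RPM over gene names. H3K27ac levels were not divided by input. No IRX gene was higher by 1 or more in EZH2–/– relative to EZH2+/+ ESCs, as 9.18% of gene names were. In the windows used, the largest change was at IRX1, from 1.36 to 2.58 RPM (0.88, counting interval 0.23 to 1.53). The RNA of IRX1 was lower in the same cells. IRX4 went from 1.58 to 2.24 RPM (0.48, -0.16 to 1.12), and over its 8 windows the change ran from 0.48 to 0.98. Over the 3 IRX5 windows it ran from -0.57, in the window used, to 0.52. Relative to EZH2–/– +EZH2 ESCs, in which IRX1 was at 0.830 RPM and IRX4 at 0.806 RPM, EZH2–/– ESCs were higher by 1.52 at IRX1 and 1.37 at IRX4. Over the 8 IRX4 windows the latter ran from 0.89 to 1.37. A change of 1 or more was reached by 3.85% of gene names in that comparison.

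H3K4me1, a mark of primed enhancers and promoter flanks, was higher at all 6 IRX genes in EZH2–/– ESCs than in EZH2+/+ ESCs, by 0.23 at IRX5 to 0.74 at IRX1. The median was 0.51 against 0.11 over all gene names, of which 59.0% were higher. In EZH2–/– ESCs H3K4me1 was 5.30 RPM at IRX1 and 5.08 RPM at IRX4. The counting interval excluded 0 at 5 of the 6 genes and ran from -0.17 to 0.64 at IRX5. EZH2–/+ ESCs were higher than EZH2+/+ ESCs at 5 of the 6 as well (median 0.33), with 5.88 RPM at IRX1 and 3.38 RPM at IRX2. Of all gene names, 53.8% were higher there. Input chromatin was also higher in EZH2–/+ than EZH2+/+ ESCs at all 6 IRX windows, by 0.13 to 0.48. At IRX5 input was higher by 0.47 in EZH2–/– than EZH2+/+ ESCs, beside its H3K4me1 change of 0.23. These H3K4me1 changes were not divided by input. Between EZH2–/– and EZH2–/+ ESCs 3 of the 6 were higher and the median was 0.02.

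Set beside H3K27me3, mean RNA in EZH2–/– ESCs was above EZH2+/+ at IRX4 and IRX6 and below it at the other 4 genes, while the mark was at 0.856 to 2.39 RPM in EZH2–/– ESCs at all 6. At IRX4 and IRX6 the mark was at 36.3 and 8.48 RPM when the transgene was on, against 41.2 and 11.5 RPM in EZH2+/+ ESCs, with RNA libraries that overlapped. In EZH2–/– ESCs the mark was at 1.99 and 0.856 RPM and the RNA at its highest. IRX1, IRX3 and IRX5 were also low in H3K27me3 in EZH2–/– ESCs, and their RNA was at 5.13 ± 1.71, 2.90 ± 0.963 and 1.04 ± 0.429 RPM (SD, n = 3), below the 37.2 ± 11.9, 6.81 ± 2.09 and 3.90 ± 1.88 RPM of EZH2+/+ ESCs. With the mark back at 18.4, 25.8 and 23.8 RPM, their RNA was at 5.46 ± 1.64, 1.74 ± 0.725 and 0.715 ± 0.420 RPM. IRX2, with 1.42 RPM of H3K27me3 in EZH2+/+ and 1.08 RPM in EZH2–/– ESCs, fell from 103 ± 23.2 to 41.6 ± 5.11 RPM of RNA.

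**Figure D4:**
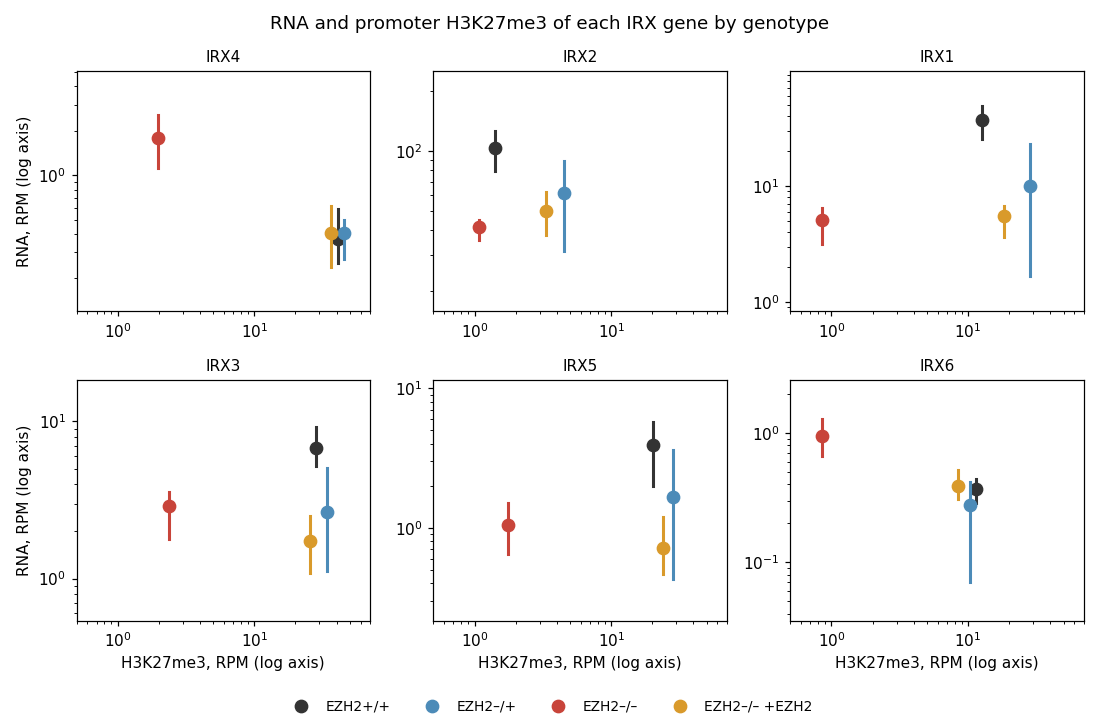
RNA level (RPM, log axis; point, mean of 3 libraries; line, lowest to highest library) against promoter H3K27me3 (RPM, log axis) of each IRX gene in the 4 genotypes. At IRX4 and IRX6 the EZH2–/– point stands alone at low H3K27me3 and high RNA, while at IRX1, IRX3 and IRX5 the EZH2+/+ point is the highest in RNA although 3 genotypes share a high H3K27me3.

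Genes next to the clusters were compared from a fixed list. Beside the chromosome 5 cluster, 1 of 6 genes tested was lower in EZH2–/– than EZH2+/+ ESCs and 1 was higher, shares near the 18.8% and 12.6% of all genes. The lower one was C5orf38, the transcript that starts head to head with IRX2 and does not overlap it. It was at 31.3, 20.9 and 33.8 RPM in EZH2+/+ and 6.91, 5.63 and 7.96 RPM in EZH2–/– libraries (log2 fold change -2.04, SE 0.42, limma adjusted p = 0.0032). The higher one was ADAMTS16, a secreted protease (0.91, limma adjusted p = 0.046). Beside the chromosome 16 cluster, 3 of 8 genes tested were lower and 0 higher, beside the same background: CRNDE, a long noncoding RNA next to IRX5 (-1.20, SE 0.29, limma adjusted p = 0.0086), FTO, the demethylase gene whose introns hold enhancers of IRX3 and IRX5 (-0.48, adjusted p = 0.0066), and RBL2, a retinoblastoma relative (-1.18, adjusted p = 8.4e-04). CTD-2012M11.3, antisense to IRX1, was lower as well (-2.62 in EZH2–/– relative to EZH2+/+ ESCs, limma adjusted p = 0.0040), at 5.05 to 11.8 RPM in EZH2+/+ and 0.770 to 1.39 RPM in EZH2–/– libraries.

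Of the 12 other TALE homeobox genes, which encode partners of HOX proteins and related factors, 6 were lower and 2 higher in EZH2–/– relative to EZH2+/+ ESCs (all genes, 18.8% and 12.6%). MEIS2, a neural and cardiac cofactor, changed by -2.97 (SE 0.62, limma adjusted p = 0.0037) and PKNOX2 by -1.73 (SE 0.32, adjusted p = 0.0016). MKX, a tendon regulator, changed by 1.40 (SE 0.44, adjusted p = 0.028). In EZH2–/– +EZH2 relative to EZH2+/+ ESCs 3 were lower (all genes, 6.9%), among them MEIS2 (-4.03, limma adjusted p = 0.0023) and MEIS1 (-3.05, adjusted p = 0.0051). The median over the 12 was -0.53 in the first comparison, against -0.13 over all genes tested and -1.25 over the 6 IRX genes.

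Over the 12 libraries, Pearson r of log2(RPM + 0.1) between IRX1, IRX2, IRX3 and IRX5 ran from 0.70 (IRX2 and IRX3) to 0.95 (IRX1 and IRX2, and IRX3 and IRX5). IRX4 and IRX6, which lie on different chromosomes, had r = 0.66. Between these 2 and the other 4 genes r ran from -0.50 (IRX2 and IRX4, of one cluster) to -0.05 (IRX3 and IRX4). Among 15495 genes averaging 1 RPM or more, the most like IRX1 were CTD-2012M11.3 (r = 0.98), TLE4 (0.95) and CITED2 (0.93), and the most like IRX2 were C5orf38 (0.97), HES3 (0.97) and RP11-923I11.6 (0.95). The most like IRX3 were DLK1 (0.94), FIBCD1 (0.94) and RHOU (0.94), and the most like IRX5 were PAMR1 (0.94), DLK1 (0.93) and LOXL2 (0.92). The most like IRX4 were AGFG2 (0.95), ZFP36 (0.95) and RP1-4G17.5 (0.95), and the most like IRX6 were AQP3 (0.92), ABT1 (0.92) and CTD-2545M3.2 (0.92). These libraries share genotypes and depths, and the values describe likeness only.

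Markers of other cell types also differed between the genotypes. Of 8 neural markers 6 were tested, and 4 (PAX6, SOX1, MAP2 and DCX) were lower in both EZH2–/– and EZH2–/– +EZH2 than in EZH2+/+ ESCs, the groups in which IRX1, IRX3 and IRX5 were low. Of all genes, 18.8% and 6.9% were lower in these comparisons. SOX1 changed by -5.89 and -4.72 (limma adjusted p = 1.2e-05 and 2.3e-04) and PAX6 by -2.57 and -3.61 (adjusted p = 0.0023 and 0.0012). NES was higher in EZH2–/– ESCs, and the 8 summed to 259 to 350 RPM in parental libraries, 319 to 356 RPM in EZH2–/– libraries and 191 to 306 RPM with the transgene. HES5 was too low to be tested, at 0.109 to 0.406 RPM in parental libraries. It was at 0 in all 3 EZH2–/+ and all 3 EZH2–/– +EZH2 libraries. Of 8 cardiac markers 4 were higher in EZH2–/– than in EZH2+/+ ESCs (all genes, 12.6%), where IRX4 was also higher. All 8 summed to 27.2 to 345 RPM against 26.6 to 34.4 RPM, and the lowest EZH2–/– library lay inside the parental range. ACTC1, which did not pass (limma adjusted p = 0.093), held 13.9, 260 and 96.8 RPM of these EZH2–/– sums. Of 7 mesendoderm and endoderm markers 4 were higher (all genes, 12.6%), with a sum of 186 to 294 RPM against 27.1 to 68.2 RPM. Of 7 mesenchyme markers tested, 4 were higher and 1 lower (all genes, 12.6% and 18.8%), with a sum of 292 to 538 RPM against 287 to 360 RPM. The part of these cell types in the IRX levels was not tested.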

How the data were processed

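RNA-seq was read from 12 libraries of H9 ESCs (4 genotypes, 3 biological replicates each) and ChIP-seq from 21 columns. The authors trimmed reads with Trim Galore 0.4.0, aligned RNA to GRCh38 with TopHat2 2.0.12 and Ensembl gene models, counted without strand in SeqMonk, and deposited log2 RPM values. ChIP reads were aligned with Bowtie2 2.2.5 and extended by 200 bases, and the authors deposited log2 RPM in windows of 2.5 kb on either side of each start. Low values fitted an average of 2 libraries after log2 transformation in each histone or input column, and the labels name 2 replicates for each, whereas the study's text speaks of 3. These held about 3430000 to 23800000 reads a library, while EZH2 was 1 library of about 93200000 reads. In RNA, 100% of values below 1000 reads lay within 0.1 of a whole read, and 3 reads equal 0.0528 to 0.120 RPM.

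Values were returned to RPM. limma 3.58.1 (R 4.3.3, lmFit and eBayes with trend) was fitted to log2(RPM + 0.1) in the 12 libraries together. A gene entered when it averaged 0.1 RPM or more, as 20608 of 35805 did, all 6 IRX genes among them. A call required p under 0.05 after Benjamini-Hochberg adjustment over all genes tested. This log2 scale understates changes of low genes. The unit is not counts, so reads recovered from RPM steps were used only in limma voom, as an alternative. Same-numbered libraries deviated together, with r above 0.1 in 18 of 18 pairs (lowest 0.11, mean 0.33, and mean -0.16 for other numbers). The pairing comes from these values alone, since neither labels nor methods name a shared batch, and a fit with the number as a block is given where it changed a call. ChIP changes are differences of log2(RPM + 0.1) without a test, counted from 1 upwards. Their 95% intervals assume Poisson counts in both libraries. RPKM used exon lengths of GENCODE release 44. The fits were tested on simulated data. All 33 value columns were used. The IRX genes, the lists and the neighbours were chosen with earlier results of these data known, and the antisense gene of IRX1 was added after its values were seen. All 6 members were tested in every comparison, though not every change is printed. List genes are named mainly where they passed the test or lie beside a cluster. A neural marker of the lists is not reported by itself here.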

Additional observations from a re-analysis of the deposited data

How the results depend on the processing

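The IRX calls depended on the settings as follows. In EZH2–/– relative to EZH2+/+ ESCs 3 IRX genes were called (31.4% of all genes), 5 with a pseudocount of 1 RPM (31.7%), 5 by limma voom (31.4%), 6 with the replicate block (45.3%), 6 in a fit of the 2 genotypes alone (35.9%), and 3 to 6 when libraries were left out. In EZH2–/– relative to EZH2–/– +EZH2 ESCs the 1 call became 0 with a mean of at least 1 RPM, which removed IRX4 and IRX6, and 0 by voom, and it was 0 to 1 when libraries were left out. In EZH2–/– relative to EZH2–/+ ESCs 2 became 0 with the same filter, 1 in a fit of the 2 genotypes, and 1 to 3 with libraries left out. In EZH2–/+ relative to EZH2+/+ ESCs 0 became 2 with the replicate block (1.15% of all genes became 2.88%) and 0 to 3 with libraries left out, and in EZH2–/– +EZH2 relative to EZH2+/+ ESCs 3 became 0 to 4. The replicate block changed no IRX call other than those named here and in the results. When libraries were left out, the log2 fold change of IRX1 in EZH2–/– relative to EZH2–/– +EZH2 ESCs ran from -0.37 to 0.20, and those of IRX4 and IRX6 in EZH2–/– +EZH2 relative to EZH2+/+ ESCs from -0.18 to 0.42 and from -0.12 to 0.18. Without the third library of every genotype these last 2 were 0.67 and -0.014. None was called.

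Scaling by median ratios moved the share of higher genes among all calls from 40.1% to 54.5% in EZH2–/– and from 33% to 54% in EZH2–/– +EZH2 relative to EZH2+/+ ESCs, while no IRX gene called in either fit changed direction. In the latter comparison it lost the IRX5 call, and in the former it added IRX6. The IRX median of H3K27me3 in EZH2–/– relative to EZH2+/+ ESCs was -3.56, -2.91 with a pseudocount of 1 RPM and -2.89 when centred on promoters without the mark. In EZH2–/– +EZH2 relative to EZH2+/+ ESCs it was 0.04, 0.30 when centred and -0.16 as a ratio to input, and in EZH2–/+ relative to EZH2+/+ ESCs 0.36 and, as a ratio to input, -0.016. Other causes of these shifts were not tested. Reads limit IRX4 and IRX6, with 4 to 27 reads a library outside EZH2–/– ESCs, and ChIP columns without separate replicates allow no test.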
